A study of Mus musculus with 18 samples.

Results

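The subject here is a set of 10 genes, Egr1, Egr2, Egr3, Klf2, Klf4, Klf6, Ier2, Ier3, Zfp36 and Atf3, that are switched on early when a cell is stimulated. They were chosen by symbol from the 18397 genes of the deposited expression table, and all 10 were found there. The table holds 18 RNA sequencing libraries in 6 groups of 3: Stiff+mito, Stiff-TW and Stiff, for cells on a stiff matrix with an addition labelled mito, in a condition labelled TW, and alone, and Soft+mito, Soft-TW and Soft for the same on a soft matrix. The series title names a stiffness-related transfer of mitochondria in tumour progression as its subject, and neither mito nor TW is spelled out in the labels, which also give no stiffness. Every library is labelled RAW264.7, a mouse macrophage line, with no genotype, other agent or time given. The labels do not say whether the 3 libraries of a group came from separate cultures, so p-values measure only how far these libraries differ, which may be technical.

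Immediate early genes are transcribed within minutes of a growth factor, stress or mechanical stimulus, without new protein synthesis. Signals through the MAP kinases reach serum response factor (Srf) and its Ets-type partners at CArG boxes and Ets sites in many of their promoters. Egr1, Egr2 and Egr3 are zinc finger activators that bind a GC-rich site and are held back by the NAB corepressors. Klf2, Klf4 and Klf6 belong to the Krüppel-like zinc finger factors. Zfp36 (tristetraprolin) binds AU-rich elements in the 3′ ends of mRNAs and speeds their decay, and Atf3 is a stress-induced leucine zipper factor of the ATF and CREB family. Several of these mRNAs are short-lived, so their levels can move quickly.

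The libraries held 16054637 to 16887244 estimated counts each, with 11785 to 11909 genes of at least 10 counts, and 12245 genes were tested, among them all 10 members. The labelled cell type was at odds with its markers: Csf1r, the receptor of the macrophage growth factor, was at most 1.1 TPM (transcript abundance scaled for length and library size) in any library, and Ptprc, the pan-leukocyte CD45, at most 0.27 TPM. Krt8, a simple epithelial keratin, had group means from 439 to 724 TPM, and Vim, the mesenchymal filament vimentin, from 1426 to 4217 TPM. Neither of these gives the cells a type: of 16 epithelial markers in the table, only Krt8 and Krt18 had a mean of at least 10 TPM in the set, and Epcam and Ocln were at most 0.17 TPM in any library, while of 14 fibroblast markers 6 had such a mean, and Lum, Fap and Thy1 were at most 0.11 TPM. Endothelial markers summed to at most 0.77 TPM. The libraries are therefore called by their matrix and addition only. Of 20 macrophage markers, 18 were in the table and 2, Lyz2 and Cd14, had a mean of at least 10 TPM in the set. Their summed level was 43.4 to 46.8 TPM in Stiff+mito, 58.5 to 60.4 TPM in Stiff-TW, 34.2 to 39.1 TPM in Stiff, 52 to 56.1 TPM in Soft+mito, 85.7 to 90.6 TPM in Soft-TW and 42.5 to 43.6 TPM in Soft libraries. The sums thus lay above those of the matrix alone in each treated group, and their part in the results below was not tested. Adgre1 (F4/80) was listed at 0 in all Soft+mito and Soft libraries.

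The positions of the members are those of the GRCm38.p6 annotation of RefSeq. Egr2 (gene 13654) is at chr10:67534469-67542188 and Egr3 (13655) at chr14:70077317-70082613. Klf2 (16598) is at chr8:72319062-72321654, Klf4 (16600) at chr4:55527137-55532475 and Klf6 (23849) at chr13:5861489-5870393. Ier2 (15936) is at chr8:84661331-84662852, Ier3 (15937) at chr17:35821713-35822911, Zfp36 (22695) at chr7:28376784-28379228 and Atf3 (11910) at chr1:191170296-191183333.

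RefSeq promoter windows of that build were matched for 7 of the 10 members, 11 windows in all, and the 250 bases before each start were searched on both strands for 5 motifs. Egr1, Egr3 and Ier2 had no matched window and were not searched. The CArG box, the site of Srf, was in 5 of the 11 windows, those of Zfp36 and 4 of Egr2, and in 1.47% of all 32851 windows of this length. By gene it was in 2 of the 7. The Egr2 windows that begin at chr10 positions 67537619, 67537620 and 67537680 hold 1 and the same box. The 5 windows are thus fewer separate boxes, and their number cannot be set directly against 1.47%. The Egr-type site GCGNGGGCG was in 3 windows, those of Zfp36, Klf2 and Klf4, against 4.7% of all windows. The Ets core CCGGAA was in 2 windows, of Zfp36 and Egr2, against 12% of all. The CREB-type site TGACGTCA (1.55% of all windows) and the AP-1-type site TGANTCA (6.75%) were in 0 of the 11. No match overlapped one of another motif, several Egr2 windows overlap each other, and a match describes letters only. Shown here are the window with 3 of the motifs (Zfp36, minus strand, chr7:28379229-28379478) and the windows of Klf2 (plus strand, chr8:72318812-72319061) and Klf4 (minus strand, chr4:55532476-55532725). Also shown is that of Klf6 (plus strand, chr13:5861239-5861488), which held none of the 5, as did the windows of Atf3 and Ier3. The sequences shown read 5′ to 3′ in the direction of the gene and end at the base before its start. Capitals mark the matches: in Zfp36 the Egr-type site, the Ets core and the CArG box, which begin 105, 92 and 58 bases before the start, and in Klf2 and Klf4 the Egr-type site.
Zfp36: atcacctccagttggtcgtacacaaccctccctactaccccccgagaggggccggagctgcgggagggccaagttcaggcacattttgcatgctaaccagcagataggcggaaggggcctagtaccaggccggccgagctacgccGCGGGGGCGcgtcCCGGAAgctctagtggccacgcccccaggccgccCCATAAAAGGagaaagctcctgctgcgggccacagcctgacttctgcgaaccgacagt
Klf2: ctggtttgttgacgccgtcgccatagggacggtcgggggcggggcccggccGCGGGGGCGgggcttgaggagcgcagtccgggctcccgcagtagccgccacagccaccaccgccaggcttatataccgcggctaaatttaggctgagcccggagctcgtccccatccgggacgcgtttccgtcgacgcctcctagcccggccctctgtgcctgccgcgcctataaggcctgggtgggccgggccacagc
Klf4: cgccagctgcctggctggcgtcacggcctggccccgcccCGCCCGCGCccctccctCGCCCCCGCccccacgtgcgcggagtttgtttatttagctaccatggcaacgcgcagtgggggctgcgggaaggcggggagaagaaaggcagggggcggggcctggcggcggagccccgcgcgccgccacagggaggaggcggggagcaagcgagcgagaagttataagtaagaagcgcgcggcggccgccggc
Klf6: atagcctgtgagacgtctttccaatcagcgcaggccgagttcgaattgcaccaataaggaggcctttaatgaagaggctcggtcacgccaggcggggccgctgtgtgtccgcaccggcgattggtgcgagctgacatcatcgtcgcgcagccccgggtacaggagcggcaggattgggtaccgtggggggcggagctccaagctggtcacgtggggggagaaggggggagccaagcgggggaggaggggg

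The 10 genes differed widely in level and in how far they moved across the 6 groups. Per transcript length, Ier3 was the most abundant at group means of 862 to 1656 TPM. Klf6 had group means of 72.2 to 190 TPM and Egr1 of 25.1 to 248 TPM, Klf6 being above Egr1 in 4 of the 6 groups, while Egr2 and Egr3 stayed between 0.723 and 3.1 TPM. The ratio of the highest to the lowest group mean in TPM was 11.2 for Klf2, 9.9 for Egr1, 4.29 for Egr2, 3.57 for Zfp36 and 3.21 for Ier2. For Klf6, Atf3, Egr3, Klf4 and Ier3 it lay between 1.92 and 2.63. Stiff+mito was the highest group for 8 members, whereas Egr3 was highest in Stiff-TW and Ier3 in Soft-TW.

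**Figure D1:**
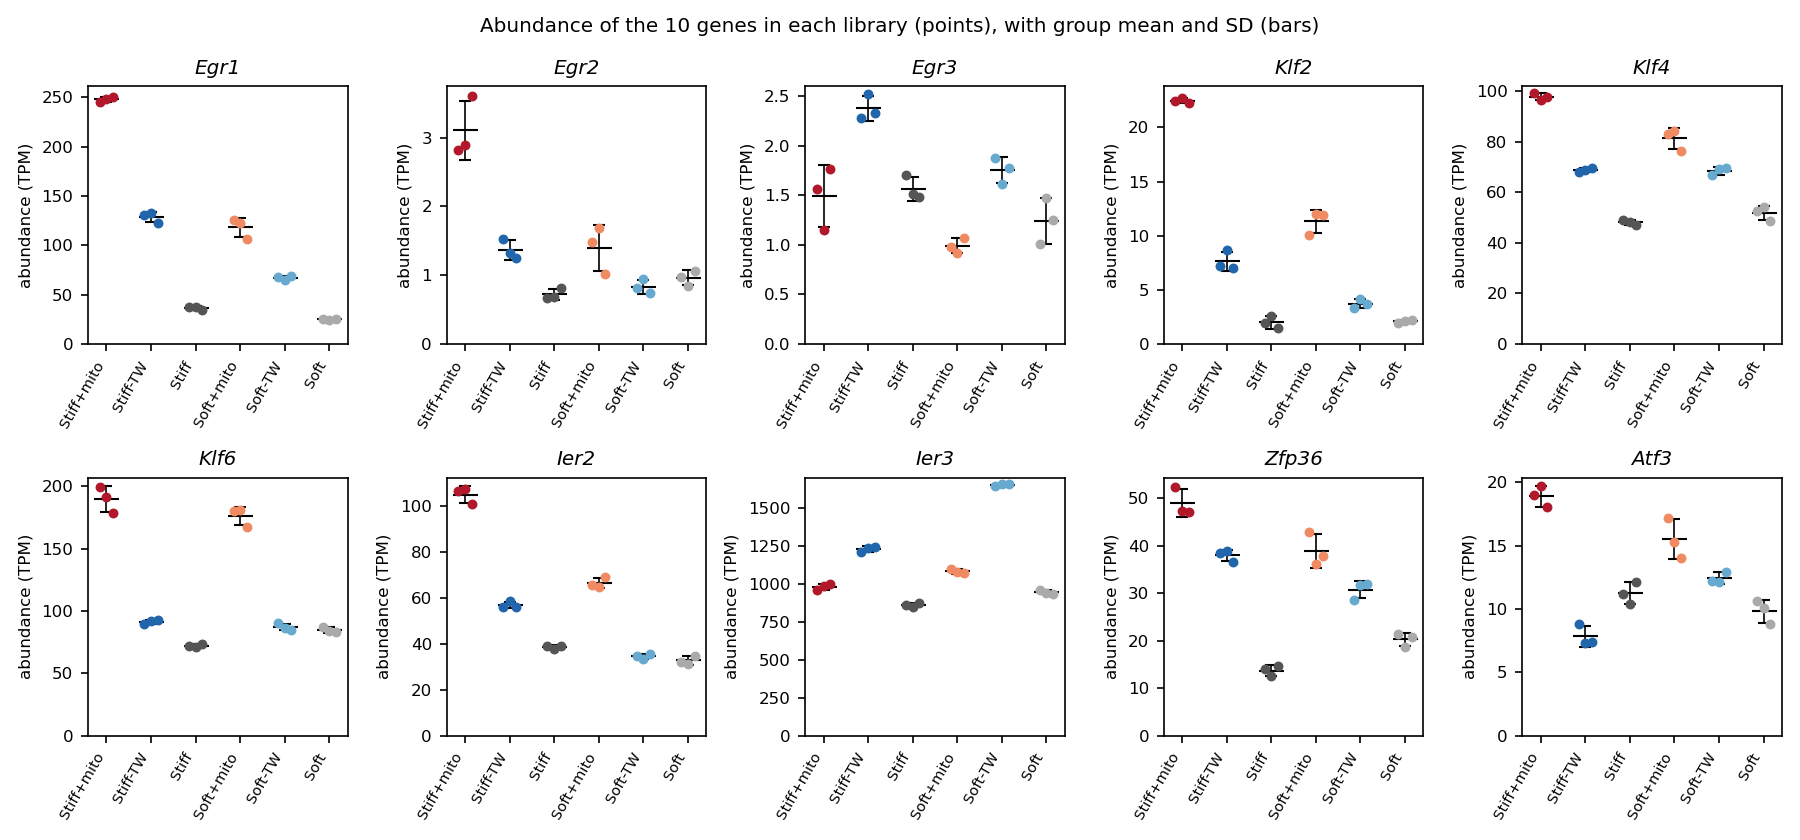
Abundance in TPM (y axes, linear, from 0) of each of the 10 genes in the 18 libraries, as points, with group means and SD over 3 libraries as bars; groups run from Stiff+mito to Soft on the x axes. Egr1 lay at 246 to 250.1 TPM in Stiff+mito libraries against 34.5 to 37.6 TPM in Stiff libraries, while Ier3 peaked in Soft-TW at 1648 to 1661 TPM.

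Addition of mito raised 9 of the 10 genes on each matrix, and Egr3 was the exception on both. Egr1, Klf2, Zfp36, Ier2, Klf6, Klf4 and Egr2 rose at least 2-fold in Stiff+mito against Stiff, and Egr1, Klf2, Klf6, Ier2 and Zfp36 did so in Soft+mito against Soft. Over all genes tested with edgeR's quasi-likelihood test, at a Benjamini-Hochberg adjusted p under 0.05, 15.6% were called higher and 17.8% lower in Stiff+mito, and 14.8% higher and 11.9% lower in Soft+mito. The member median log2 fold change was 1.42 in Stiff+mito and 0.9 in Soft+mito, beside 0 and 0.01 over all genes tested. Over all genes, the share of calls that were higher turned on the scaling: for Soft+mito it was 55.5% with TMM and 38.3% with library totals, for Soft-TW 50.8% and 38.6%, for Stiff against Soft 54.1% and 44.1%, and for the dependence of mito on the matrix 44.3% and 58.1%. In bulk RNA, more cells with a transcript and more transcript per cell cannot be told apart.

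Egr1 (gene 13653, chr18:34861207-34864956), a zinc finger factor induced by growth factors, had 246, 248 and 250.1 TPM in Stiff+mito libraries, against 37.6, 37.5 and 34.5 TPM in Stiff libraries. On the soft matrix it had 125, 122 and 107 TPM in Soft+mito libraries, against 25.4, 24.1 and 25.6 TPM in Soft libraries. The groups did not overlap on either matrix, and the log2 fold change was 2.77 ± 0.044 on stiff (adjusted p = 3.14e-21) and 2.33 ± 0.051 on soft (adjusted p = 1.12e-18; ± is an approximate SE from the fit, here and for each log2 fold change below). Egr2, known for hindbrain patterning and for myelination by Schwann cells, was scarce, at 2.82, 2.89 and 3.6 TPM in Stiff+mito against 0.67, 0.68 and 0.82 TPM in Stiff. Its log2 fold change was 1.73 ± 0.18 there (adjusted p = 1.58e-14) and 0.68 ± 0.21 in Soft+mito against Soft (adjusted p = 0.00816). The soft call rested on few counts, 36 to 52 per library in Soft+mito and 25 to 30 in Soft, and was lost without Soft+mito replicate 2 (0.55, edgeR adjusted p = 0.0731). Egr3, which is needed for muscle spindles, was at 1.15 to 1.76 TPM in Stiff+mito and 1.48 to 1.7 TPM in Stiff libraries. Its log2 fold change was -0.04 ± 0.16 on stiff (adjusted p = 0.872) and -0.27 ± 0.18 on soft (adjusted p = 0.296), so no change was detectable at 37 to 70 counts per library.

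Among the Krüppel-like factors, Klf2, an endothelial gene best known for its response to blood flow, moved most. It had 22.4, 22.8 and 22.3 TPM in Stiff+mito libraries, against 1.92, 2.64 and 1.48 TPM in Stiff libraries, a log2 fold change of 3.49 ± 0.12 (adjusted p = 2.74e-48). In Soft+mito it had 10.1, 12.0 and 11.9 TPM, against 1.98, 2.12 and 2.19 TPM in Soft, a log2 fold change of 2.53 ± 0.14 (adjusted p = 1.03e-31). The treated libraries of both matrices lay above all untreated ones, whose 23 to 41 counts set the error of this fold. Klf6, a broadly expressed transcription factor, had 199.9, 191 and 179 TPM in Stiff+mito against 72.0, 70.9 and 73.7 TPM in Stiff. Soft+mito libraries had 180.2, 181 and 168 TPM of it, against 87.2, 83.9 and 83.1 TPM in Soft. The libraries of Klf6 overlapped between the mito groups, and it rose by 1.40 ± 0.026 on stiff (adjusted p = 7.38e-58) and 1.15 ± 0.025 on soft (adjusted p = 2.28e-52) in log2 units. Klf4, a factor of epithelial barriers and of reprogramming to stem cells, rose less than 2-fold on soft and just over 2-fold on stiff. It averaged 97.8 ± 1.43 TPM in Stiff+mito and 48.1 ± 0.981 TPM in Stiff, and 81.2 ± 4.3 TPM in Soft+mito and 51.8 ± 2.81 TPM in Soft (SD, n = 3 each). The log2 fold changes of Klf4 were 1.03 ± 0.032 and 0.74 ± 0.032, with adjusted p = 5.2e-53 on stiff and 7.58e-40 on soft.

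Ier2, a nuclear protein of the serum response, had 107, 107 and 101 TPM in Stiff+mito libraries, against 39.0, 37.7 and 39.1 TPM in Stiff libraries (log2 fold change 1.45 ± 0.045, adjusted p = 9.48e-53). In Soft+mito it had 65.8, 64.9 and 69.0 TPM, against 32.2, 31.2 and 34.9 TPM in Soft (1.12 ± 0.051, adjusted p = 6.96e-38). Ier3 (IEX-1), a stress-induced regulator of cell survival, had 962, 987 and 1001 TPM in Stiff+mito against 861, 848 and 875 TPM in Stiff. In Soft+mito it had 1103, 1079 and 1074 TPM, against 961, 939 and 938 TPM in Soft. The libraries did not overlap, but the rise was small: the log2 fold change was 0.21 ± 0.021 on stiff (adjusted p = 4.78e-15) and 0.29 ± 0.021 on soft (adjusted p = 3.98e-23). Zfp36 had 52.4, 47.4 and 47.1 TPM in Stiff+mito libraries, against 14.0, 12.5 and 14.6 TPM in Stiff libraries, the lowest of any group. In Soft+mito it had 43.0, 36.1 and 37.8 TPM, against 21.4, 18.6 and 20.8 TPM in Soft. The log2 fold change of Zfp36 was 1.84 ± 0.065 on stiff (adjusted p = 2.05e-47) and 1.04 ± 0.062 on soft (adjusted p = 1.84e-28). Atf3 rose by 0.75 ± 0.080 log2 units on stiff (adjusted p = 7.41e-14) and by 0.75 ± 0.085 on soft (adjusted p = 1.49e-12). It had 19.0, 19.7 and 18.0 TPM in Stiff+mito against 11.2, 10.4 and 12.2 TPM in Stiff, and 17.2, 15.3 and 14.1 TPM in Soft+mito against 10.6, 10.1 and 8.78 TPM in Soft.

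**Figure D2:**
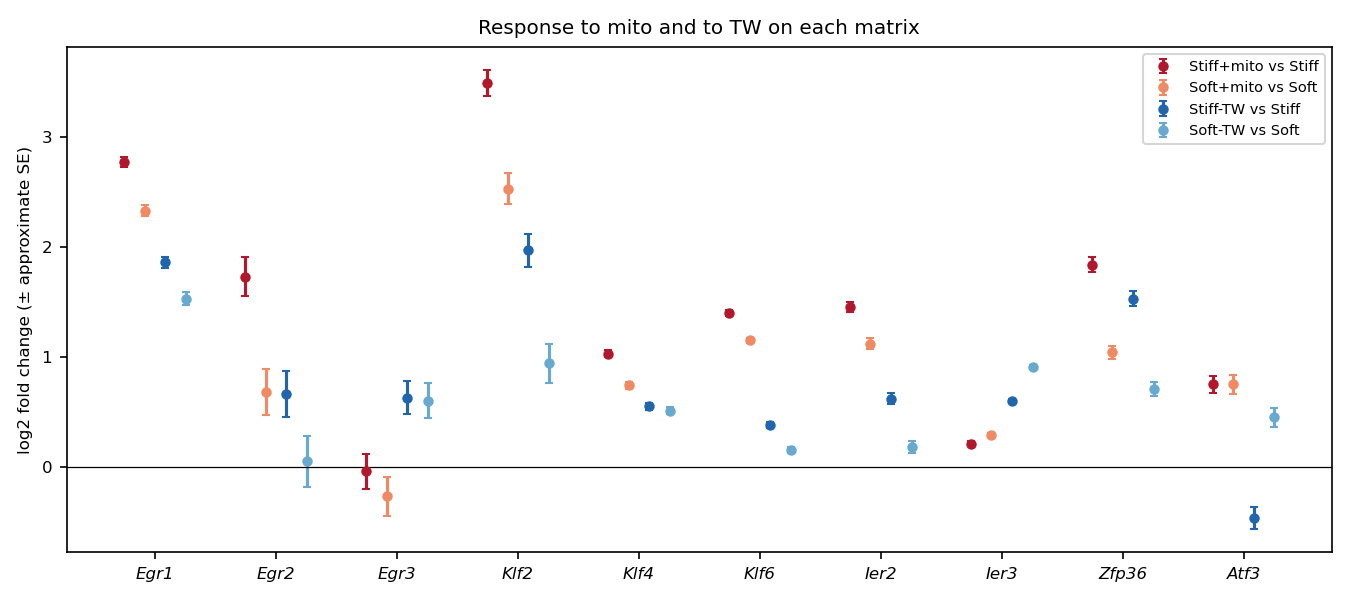
Log2 fold change (y axis, ± approximate SE) of each of the 10 genes in Stiff+mito against Stiff, Soft+mito against Soft, Stiff-TW against Stiff and Soft-TW against Soft, from 3 libraries per group. Klf2 stands highest at 3.49 in Stiff+mito, Egr3 has values near 0 or below with mito and of 0.63 and 0.60 with TW, and Atf3 is below 0 in Stiff-TW at -0.47.

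In the TW condition Egr1, Klf2 and Zfp36 again stood high, Ier3, which rose little with mito, rose by 0.91 log2 units on the soft matrix, and Atf3 moved in opposite directions on the stiff and soft matrix. Of the 10 genes, 9 rose and 1 fell in Stiff-TW against Stiff, where 35.5% of all genes tested were called higher and 34.1% lower. In Soft-TW against Soft, 9 rose and 0 fell, where 28.9% of all genes were called higher and 28% lower. The member median log2 fold change was 0.63 in Stiff-TW and 0.55 in Soft-TW. These comparisons share their untreated libraries with those of mito, so the values are set side by side without a measure of agreement.

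Egr1 had 131, 133 and 123 TPM in Stiff-TW libraries, against 34.5 to 37.6 TPM in Stiff, and 67.7, 64.5 and 69.0 TPM in Soft-TW libraries, against 24.1 to 25.6 TPM in Soft. The log2 fold change was 1.86 ± 0.047 on stiff and 1.53 ± 0.056 on soft, and the treated libraries lay above all untreated ones. Egr3, which did not pass the test with mito, had 2.28, 2.52 and 2.33 TPM in Stiff-TW against 1.7, 1.51 and 1.48 TPM in Stiff (log2 fold change 0.63 ± 0.15, adjusted p = 8.21e-05). It rose on the soft matrix too, by 0.60 ± 0.16 (adjusted p = 0.00107), with 1.87, 1.61 and 1.77 TPM in Soft-TW against 1.01 to 1.47 TPM in Soft. Egr2 rose by 0.66 ± 0.21 in Stiff-TW (adjusted p = 0.0031) and had a log2 fold change of 0.05 ± 0.23 in Soft-TW (adjusted p = 0.879). For Egr2 the mean TPM was 0.833 in Soft-TW and 0.963 in Soft, the other way round from the fold change of its counts.

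Klf2 had 7.18, 8.67 and 7.03 TPM in Stiff-TW, against 1.48 to 2.64 TPM in Stiff, a log2 fold change of 1.97 ± 0.15. In Soft-TW it had 3.31, 4.16 and 3.73 TPM, against 1.98 to 2.19 TPM in Soft, a log2 fold change of 0.94 ± 0.18 (adjusted p = 3.1e-06). Klf4 stood at 68.7 ± 0.795 TPM in Stiff-TW and 68.4 ± 1.44 TPM in Soft-TW libraries (SD, n = 3 each), overlapping levels that were 0.55 ± 0.034 and 0.51 ± 0.033 log2 units above the matrix alone. Klf6 rose by 0.38 ± 0.028 in Stiff-TW, at 89.5 to 92.8 TPM against 70.9 to 73.7 TPM in Stiff, and by 0.15 ± 0.027 in Soft-TW, where its libraries overlapped those of Soft on the TPM scale.

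Ier3 had 1648, 1659 and 1661 TPM in Soft-TW libraries, against 961, 939 and 938 TPM in Soft libraries, a log2 fold change of 0.91 ± 0.020 (adjusted p = 8.12e-67). On the stiff matrix it had 1214, 1236 and 1247 TPM in Stiff-TW, against 861, 848 and 875 TPM in Stiff, a log2 fold change of 0.60 ± 0.021. The 6 group means of Ier3 ran Soft-TW, Stiff-TW, Soft+mito, Stiff+mito, Soft and Stiff from high to low, with no overlap between neighbouring groups. Ier2 had 56.1, 58.5 and 56.1 TPM in Stiff-TW, against 37.7 to 39.1 TPM in Stiff (0.62 ± 0.051), and 34.8, 33.5 and 35.4 TPM in Soft-TW, against 31.2 to 34.9 TPM in Soft, which overlapped. Its rise in Soft-TW was small (0.18 ± 0.059, adjusted p = 0.00533) and was lost without Soft replicate 1 (0.14, edgeR adjusted p = 0.0581) or replicate 2 (0.14, adjusted p = 0.0618) and with library totals as the scale (0.13, adjusted p = 0.0527). Zfp36 had 38.5, 38.9 and 36.7 TPM in Stiff-TW, against 12.5 to 14.6 TPM in Stiff (1.53 ± 0.068), and 28.7, 31.7 and 32.0 TPM in Soft-TW, against 18.6 to 21.4 TPM in Soft (0.71 ± 0.065). Atf3 fell in Stiff-TW to 8.82, 7.32 and 7.42 TPM, against 11.2, 10.4 and 12.2 TPM in Stiff (-0.47 ± 0.10, adjusted p = 9.07e-06). It rose in Soft-TW to 12.2, 12.2 and 13.0 TPM, against 10.6, 10.1 and 8.78 TPM in Soft (0.45 ± 0.089, adjusted p = 7.2e-06).

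Without mito or TW, these genes differed between the stiff and soft matrix in both directions. The counts were near the shares of all genes, so they are no result about the members. In Stiff against Soft libraries, 4 of the 10 rose and 3 fell, none by 2-fold, where 29.1% of all genes tested were called higher and 24.7% lower, and the member median log2 fold change was 0.05. Egr1 rose by 0.63 ± 0.063 (adjusted p = 3.62e-08), at 34.5 to 37.6 TPM in Stiff against 24.1 to 25.6 TPM in Soft, and Ier2 by 0.31 ± 0.058. Zfp36 fell by 0.49 on the log2 scale (SE 0.079, adjusted p = 8.06e-08), at 12.5 to 14.6 TPM in Stiff against 18.6 to 21.4 TPM in Soft. Klf6 had a log2 fold change of -0.14 ± 0.028 (adjusted p = 1.5e-05) and Ier3 one of -0.08 ± 0.021 (adjusted p = 0.000568), while Klf2, Klf4 and Egr2 did not pass (0.01, -0.02 and 0.09). Atf3 (0.28 ± 0.092, adjusted p = 0.00756) was lost without Soft replicate 3 (0.19, edgeR adjusted p = 0.103) or Stiff replicate 3 (0.22, adjusted p = 0.0654). Egr3 (0.40 ± 0.17, adjusted p = 0.0386) was lost without Soft replicate 1 (0.25, adjusted p = 0.256), Soft replicate 3 (0.39) or Stiff replicate 1 (0.32), with DESeq2 (0.39, adjusted p = 0.113), and with library totals, no filter or only the groups compared (adjusted p = 0.0521 to 0.0639).

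With mito present, the same contrast of matrices was mostly upward. In Stiff+mito against Soft+mito, 9 of the 10 rose and 1 fell, where 32.7% of all genes were called higher and 30.8% lower, and the member median was 0.47. Egr2 (1.14 ± 0.16), Egr1 (1.06 ± 0.036), Klf2 (0.97 ± 0.083), Ier2 (0.64 ± 0.040) and Egr3 (0.62 ± 0.18) led in log2 units, and Zfp36, Atf3, Klf4 and Klf6 rose by 0.10 to 0.32. Ier3 fell by 0.16 on the log2 scale, at 962 to 1001 TPM in Stiff+mito against 1074 to 1103 TPM in Soft+mito. In Stiff-TW against Soft-TW, 7 rose and 2 fell, where 27.6% of all genes were called higher and 26.7% lower, and the member median was 0.38. Klf2 (1.05 ± 0.13), Egr1 (0.96 ± 0.042), Ier2 (0.74 ± 0.052) and Egr2 (0.71 ± 0.21) led there. Atf3 fell by 0.64 on the log2 scale (adjusted p = 3.47e-09) and Ier3 by 0.40 (adjusted p = 3.94e-35), and Klf4 did not pass (0.03, adjusted p = 0.51). The call of Klf6 (0.08 ± 0.027, adjusted p = 0.0061) was lost with library totals (0.05, adjusted p = 0.112), with DESeq2 (0.07, adjusted p = 0.054) and without Soft-TW replicate 3 (0.06, adjusted p = 0.0741) or Stiff-TW replicate 3 (0.06, edgeR adjusted p = 0.0808).

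**Figure D3:**
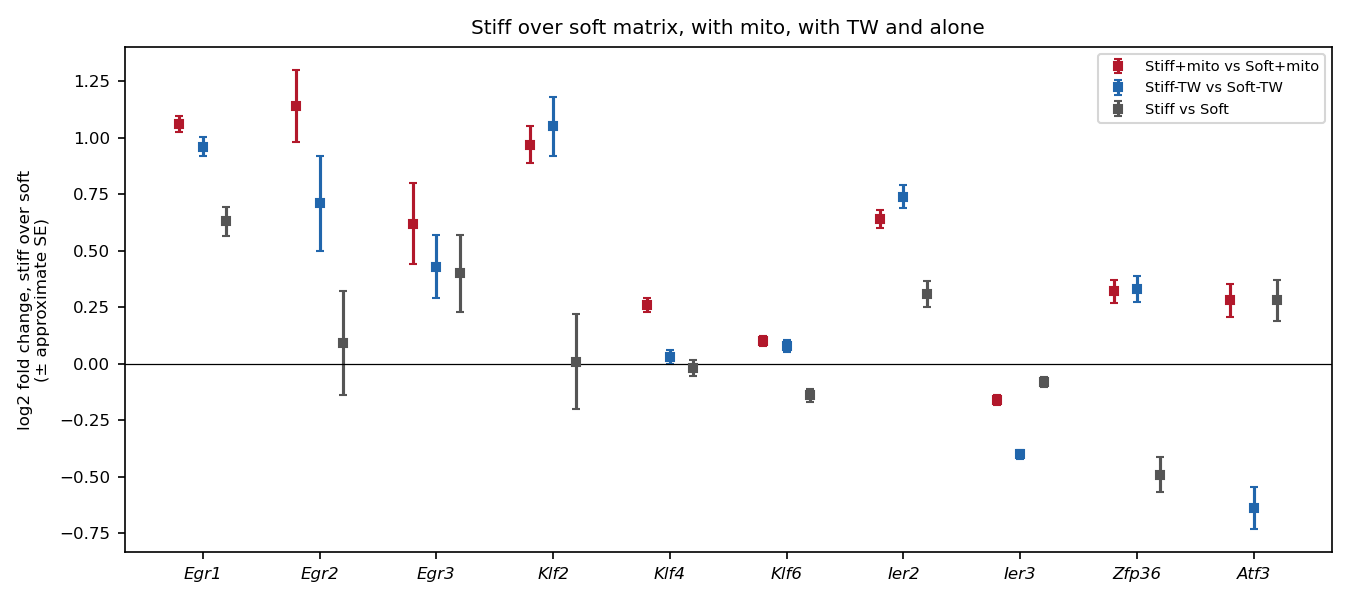
Log2 fold change of stiff over soft matrix (y axis, ± approximate SE) for each of the 10 genes with mito, with TW and alone, from 3 libraries per group. Egr1 and Ier2 lie above 0 in all 3 settings, Ier3 lies below 0 in all 3, Klf2 lies at 0.97 and 1.05 with mito and TW against 0.01 alone, and Atf3 lies at -0.64 with TW against 0.28 alone.

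The difference between the responses on stiff and on soft matrix was tested directly as an interaction, the log2 fold change on stiff minus that on soft. For mito, 7 of the 10 genes responded more on stiff and 1, Ier3, less, where 10.4% of all genes were called higher and 13.1% lower. Egr2 (1.05 ± 0.28, adjusted p = 0.00282), Klf2 (0.96 ± 0.23, adjusted p = 0.000565) and Zfp36 (0.81 ± 0.094, adjusted p = 1.41e-11) differed most. The Egr2 difference rests on 23 to 112 counts per library, and DESeq2 gave no adjusted p for it. Egr1 (0.43 ± 0.074), Ier2 (0.34 ± 0.071), Klf4 (0.28 ± 0.046) and Klf6 (0.24 ± 0.037) differed by less, and for Atf3 (-0.00, adjusted p = 0.996) and Egr3 (0.22, adjusted p = 0.556) no difference was detectable. The Ier3 difference (-0.08 ± 0.030, adjusted p = 0.0456) was lost under most alternatives, among them library totals (-0.05, adjusted p = 0.236) and DESeq2 (-0.08, adjusted p = 0.076). For TW, 5 genes responded more on stiff and 2 less, where 16.4% of all genes were called higher and 19.7% lower. Klf2 (1.04 ± 0.25, adjusted p = 0.000358), Zfp36 (0.81 ± 0.10, adjusted p = 7.97e-12), Ier2 (0.44 ± 0.079), Egr1 (0.33 ± 0.077) and Klf6 (0.23 ± 0.039) were those 5. Ier3 (-0.31 ± 0.029, adjusted p = 6.44e-17) and Atf3 (-0.92 ± 0.13, adjusted p = 4.15e-09) responded less on stiff, and Egr2 (0.61 ± 0.31, adjusted p = 0.113), Klf4 (0.05) and Egr3 (0.04) did not pass. Both interactions use the same Stiff and Soft libraries, so the low Zfp36 and the level of Atf3 in Stiff enter each of them.

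Correlated over the 18 libraries, which fall into the 6 groups and share their untreated libraries, 7 of the members moved as a block. Pearson's r of log2 CPM (counts scaled to library size) was 0.96 for Egr1 with Klf2, 0.95 for Egr1 with Klf4 and 0.96 for Klf2 with Klf4, and at least 0.73 for every pair among Egr1, Egr2, Klf2, Klf4, Klf6, Ier2 and Zfp36. Atf3 came closest to Klf6 (0.79), Ier3 had r from -0.11 to 0.47 with the other members and Egr3 from -0.45 to 0.45. Outside the set, the patterns most like that of Egr1 were those of Jun (0.981), Ccn1 (0.970) and Fos (0.964), and those most like Klf2 were Dusp1 (0.971), Rhob (0.969) and Fosb (0.969). Klf4 was closest to Rhob (0.988), Klf6 to Dusp1 (0.953) and Plk2 (0.952), Ier2 to Ccn1 (0.974) and Zfp36 to Jund (0.984) and Sgk1 (0.964). Egr2 was closest to Ccn1 (0.882), Egr3 to Bbc3 (0.941) and Atf3 to Ereg (0.904) and Ptgs2 (0.878). Ier3 was closest to Btg1 (0.981), the lactate transporter gene Slc16a3 (0.976), and Pfkl (0.970) and Pfkp (0.968), which encode phosphofructokinase of glycolysis. These values describe the 18 libraries and carry no p.

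**Figure D4:**
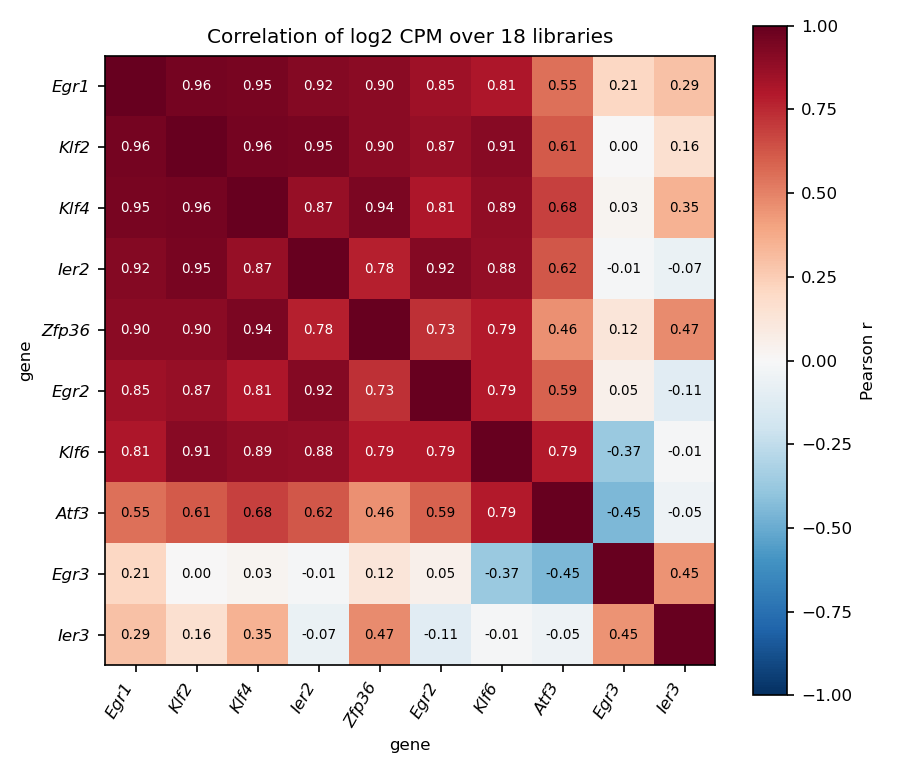
Pearson's r of log2 CPM over 18 libraries between each pair of the 10 genes (both axes), coloured from -1 (blue) to 1 (red). Egr1, Klf2, Klf4, Ier2, Zfp36, Egr2 and Klf6 form a block of r between 0.73 and 0.96, and Egr3 and Ier3 stand outside it at -0.45 to 0.47.

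The relatives of the members had small median changes with mito. Of 7 tested Krüppel-like genes outside the set, 4 rose and 0 fell in Stiff+mito (15.6% and 17.8% of all genes). In Soft+mito 3 rose and 1 fell (14.8% and 11.9% of all genes). The median log2 fold changes were 0.08 and 0.06. With TW, 5 rose in Stiff-TW (35.5% of all genes) and 6 in Soft-TW (28.9%), and none fell (34.1% and 28%). The medians were 0.31 and 0.27. These rises were led by Klf7, a factor of neuronal development, which rose by 1.04 ± 0.046 in Stiff-TW and 1.12 ± 0.051 in Soft-TW. Of the NAB corepressors, Nab2, itself a known Egr1 target, rose with TW, by 0.60 ± 0.048 in Stiff-TW and 0.40 ± 0.044 in Soft-TW, and fell in Soft+mito by 0.14 on the log2 scale (adjusted p = 0.0153), while neither passed the test in Stiff+mito. Zfp36l1, a close relative of Zfp36, rose in all 4 settings, by 0.85 ± 0.038 in Stiff+mito, 0.43 ± 0.040 in Soft+mito, 1.15 ± 0.037 in Stiff-TW and 0.89 ± 0.038 in Soft-TW. Zfp36l2 had log2 fold changes of 0.11 in Stiff+mito, 0.06 in Soft+mito, -0.05 in Stiff-TW and -0.08 in Soft-TW. Of all 4 tested relatives of the Ier genes and Zfp36, 2 rose and 0 fell in Stiff+mito, and 3 rose and 0 fell in Soft+mito. With TW, 2 rose and 2 fell in Stiff-TW, and 1 rose and 2 fell in Soft-TW. The shares of all genes are those given above for each setting.

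Most other immediate early genes rose with mito and with TW. Of 27 tested, 22 rose and 0 fell in Stiff+mito (15.6% and 17.8% of all genes). In Soft+mito 18 rose and 1 fell (14.8% and 11.9%). With TW, 21 rose and 1 fell in Stiff-TW (35.5% and 34.1%), and 19 rose and 3 fell in Soft-TW (28.9% and 28%). The medians in these 4 settings were 0.45, 0.43, 0.68 and 0.41. Fos, the AP-1 subunit, rose in each (3.94 ± 0.041 in Stiff+mito, 5.56 ± 0.064 in Soft+mito, 2.68 ± 0.047 in Stiff-TW and 2.84 ± 0.10 in Soft-TW). The kinases and factors that relay signals to these promoters moved in both directions, in shares near those of all genes, so the counts are no result about them: of 20 tested from Egfr to Srf, 3 rose and 3 fell in Stiff+mito (15.6% and 17.8% of all genes), 4 rose and 1 fell in Soft+mito (14.8% and 11.9%), 8 rose and 9 fell in Stiff-TW (35.5% and 34.1%), and 7 rose and 5 fell in Soft-TW (28.9% and 28%). Srf rose by 0.37 ± 0.049 in Stiff+mito and 0.29 ± 0.047 in Soft+mito. With TW its log2 fold change was -0.01 in Stiff-TW (edgeR adjusted p = 0.814) and -0.13 in Soft-TW (adjusted p = 0.0236). Map2k1, a MAP kinase kinase, rose by 0.55 ± 0.028 in Soft-TW. Of 12 genes of the NF-kB subunits and inhibitors, a pathway known to induce Ier3, 10 rose and 1 fell in Stiff-TW, where 35.5% of all genes were called higher, and 10 rose and 0 fell in Soft-TW, where 28.9% were. With mito, 3 rose and 1 fell on stiff and 2 rose and 0 fell on soft, near the 15.6% and 14.8% of all genes called higher. The counts with TW and with mito were not tested against each other. In stiff against soft matrix, 9 of the 12 rose and 2 fell without either, 9 and 1 with mito, and 10 and 1 with TW. The shares of all genes called higher there were 29.1%, 32.7% and 27.6%. Ier3 had log2 fold changes of -0.08, -0.16 and -0.40 in these contrasts, and its link to this list was not tested. The inhibitor Tnfaip3 rose by 1.45 ± 0.063 in Stiff-TW and 1.26 ± 0.069 in Soft-TW, and Nfkbiz by 0.97 ± 0.042 in Stiff+mito and 0.81 ± 0.051 in Soft+mito.

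Genes downstream of the members were described in the same way. For both lists below, the shares of all genes called higher and lower were 15.6% and 17.8% in Stiff+mito and 14.8% and 11.9% in Soft+mito. With TW they were larger, at 35.5% and 34.1% in Stiff-TW and 28.9% and 28% in Soft-TW. Of 13 tested textbook targets of Egr1, 5 rose and 0 fell in Stiff+mito, 7 rose and 2 fell in Soft+mito, 11 rose and 0 fell in Stiff-TW, and 11 rose and 1 fell in Soft-TW. The median of this list was 0.06 and 0.05 with mito, where Egr1 itself rose by 2.77 and 2.33, and 0.59 and 0.36 with TW, where Egr1 rose by 1.86 and 1.53. Ptgs2 (cyclooxygenase 2) rose by 0.84 ± 0.020 in Stiff+mito and 0.86 ± 0.020 in Soft+mito. With TW it rose by 0.07 ± 0.020 in Stiff-TW and 0.67 ± 0.020 in Soft-TW. Of 11 tested mRNAs known to be bound by Zfp36, which include Zfp36 and Ier3 themselves, 4 rose and 0 fell in Stiff+mito, 8 rose and 0 fell in Soft+mito, 7 rose and 3 fell in Stiff-TW, and 9 rose and 0 fell in Soft-TW. Zfp36 and Ier3 are among those that rose in each of these settings. Vegfa, on both lists, rose by 0.93 ± 0.023 in Stiff-TW and 1.44 ± 0.023 in Soft-TW. With mito its log2 fold change was 0.02 on each matrix and did not pass (edgeR adjusted p = 0.587 on stiff and 0.626 on soft).

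With mito, Atf3 went the other way from most stress genes it is often grouped with. Of 24 tested genes of the integrated stress response, which is run by Atf4, 22 fell and 0 rose in Stiff+mito, and 20 fell and 1 rose in Soft+mito, where Atf3 rose. In Stiff-TW, where Atf3 fell, 21 fell and 2 rose, and in Soft-TW, where Atf3 rose, 17 fell and 6 rose. In Stiff against Soft, 23 rose and 0 fell. Ddit3 (CHOP), which like Atf3 is induced by Atf4, fell by 0.90 on the log2 scale in Stiff+mito (SE 0.043, adjusted p = 2.48e-36), with group means of 113 TPM in Stiff+mito and 213 TPM in Stiff, and by 0.35 in Soft+mito. With TW it rose, by 0.42 ± 0.036 in Stiff-TW (adjusted p = 1.57e-19), where Atf3 fell, and by 0.54 ± 0.039 in Soft-TW. Atf4 fell by 0.33 on the log2 scale in Stiff+mito and by 0.44 in Stiff-TW. The 16 tested relatives and partners of Atf3 in the leucine zipper families include Atf4 and Ddit3, which are already counted above. Of the 16, 1 rose and 7 fell in Stiff+mito, Atf4 and Ddit3 among those that fell. In Soft+mito 2 rose and 7 fell, in Stiff-TW 3 and 9, and in Soft-TW 4 and 5. With the matrix alone, in Stiff against Soft, 10 rose and 2 fell. The shares of all genes called lower were 17.8% in Stiff+mito, 11.9% in Soft+mito, 34.1% in Stiff-TW and 28% in Soft-TW. Called higher, in that order, were 15.6%, 14.8%, 35.5% and 28.9%. In Stiff against Soft, 29.1% were called higher and 24.7% lower.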

How the data were processed

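The gene table deposited by the authors gives, for 18397 genes in 18 libraries, estimated (expected) counts and TPM. Per the labels' protocols, the libraries were poly(A)-selected, strand-specific and read as paired ends, and the submitters' processing notes name the build mm10. For the aligner, counter and annotation no name was given in these sources. The counts were not whole in 10.9% of values (tolerance 0.001), and in 16 of the 180 values of the 10 genes, so some reads had been divided. A transcript table of 64855 transcripts, also deposited as estimated counts, was used for shares within a gene. Not used were 90 further columns of single libraries and 88 columns of averages.

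Counts were rounded and fitted with edgeR 4.0.16 in R 4.3.3: filterByExpr (smallest count 10), TMM factors of 0.968 to 1.03, and 1 quasi-likelihood fit over all 18 libraries with group means as coefficients. Two-sided F-tests were adjusted by Benjamini-Hochberg over 12245 genes and called at 0.05. The ± beside a log2 fold change is its size divided by the square root of F. The common biological coefficient of variation was 0.0175, so small changes pass. TPM was used for levels only. Alternatives were DESeq2 1.42.0, DESeq2 size factors in the edgeR fit, library totals, no filter, unrounded counts, only the groups compared, a replicate block and leaving out each library.

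The 10 members and the gene lists were chosen with earlier results of these data known. All members are named, and of each other list up to 3 genes with the smallest adjusted p under 0.05 in the comparison described, apart from Adgre1, which was named after its values were seen. Genes of like pattern are among the 5 with the highest r of log2 CPM (prior count 2) at a mean of at least 5 CPM. Motifs were searched in RefSeq promoter windows, and Csf1r, Ptprc, Krt8 and Vim were always given. A few genes that these rules name are not reported here.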

Additional observations from a re-analysis of the deposited data

Results flagged for a closer look

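The responses of 8 of the 10 genes to mito differed between stiff and soft matrix, by edgeR's test of the interaction itself. On the log2 scale, as the response on stiff minus that on soft, the difference was 1.05 for Egr2, 0.96 for Klf2, 0.81 for Zfp36, 0.43 for Egr1, 0.34 for Ier2, 0.28 for Klf4, 0.24 for Klf6 and -0.08 for Ier3, the last of which was lost under most alternatives (adjusted p = 0.076 with DESeq2). The Egr2 difference has an approximate SE of 0.28 and rests on 23 to 112 counts per library. DESeq2 gave no adjusted p for it and so did not call it. Over all genes, 10.4% were called higher and 13.1% lower in this test. The responses of 7 genes to TW differed between the matrices by the same test, in which 16.4% of all genes were called higher and 19.7% lower. The difference was 1.04 for Klf2, 0.81 for Zfp36, 0.44 for Ier2, 0.33 for Egr1 and 0.23 for Klf6, and it was -0.31 for Ier3 and -0.92 for Atf3, whose response was -0.47 on stiff and 0.45 on soft. Zfp36 was 12.5 to 14.6 TPM in Stiff libraries and 18.6 to 21.4 TPM in Soft libraries, and both of its differences are measured from those levels. The summed macrophage markers were 34.2 to 39.1 TPM in Stiff and 42.5 to 43.6 TPM in Soft libraries, and their part in these differences was not tested.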

How the results depend on the processing

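Of 90 log2 fold changes of the 10 genes, 78 were called, and 72 of these stayed called under every alternative that gave an adjusted p. Another 6 were lost under at least 1, and none of the 78 changed sign. The 6 are Egr3 and Atf3 in Stiff against Soft, Egr2 in Soft+mito, Ier2 in Soft-TW, Klf6 in Stiff-TW against Soft-TW and the dependence of Ier3's mito response on the matrix. Of the 12 that were not called, 0 became called and 7 changed sign. With library totals these were Klf2 in Stiff against Soft (-0.03), Egr2 in Soft-TW (-0.01), Klf4 in Stiff-TW against Soft-TW (-0.01) and the Atf3 dependence of mito on the matrix (0.03). With only the groups compared, that Atf3 value was 0.01 and the Klf2 value 0.00, and without a filter the Atf3 value was 0.00. With 1 library left out, the values ran from -0.23 to 0.20 for Klf2 and from -0.07 to 0.00 for Klf4 in Stiff against Soft, from -0.20 to 0.11 for Egr3 in Stiff+mito, from -0.04 to 0.16 for Egr2 in Soft-TW, from -0.06 to 0.07 for the Atf3 dependence of mito and from -0.09 to 0.17 for the Egr3 dependence of TW on the matrix. DESeq2 gave no adjusted p for the Egr2 dependence of mito on the matrix, which is counted among the 72 but was not called there. In that test DESeq2 called 6 of the 10 genes, against 8 with edgeR. The cause of these changes was not tested.

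The total counts of called genes kept within 1.5 times under every alternative run, for all genes and for the 10. By direction, the higher calls for the dependence of mito on the matrix did not: they were 816 with DESeq2 and 1278 with edgeR, over all genes. Leaving out 1 library gave 5 to 7 of the 10 called in Stiff against Soft, 8 to 9 in Soft+mito, 9 in Stiff+mito, 8 to 9 in Soft-TW, 10 in Stiff-TW, 10 in Stiff+mito against Soft+mito and 8 to 9 in Stiff-TW against Soft-TW, and 7 to 8 and 7 for the dependence of mito and TW on the matrix. The median log2 fold change of all genes was at most 0.015 from 0 with TMM and -0.059 with library totals in Soft-TW, the farthest. Replicate numbers in the labels did not pair the libraries: 6 of 18 correlated best with a library of their own number. With the number as a replicate block, the same counts of the 10 were called in every comparison, 9 of 10 in Stiff+mito for example, and 3354 genes were called in Soft+mito against 3274 without it. Depth limits Egr2 and Egr3, at 23 to 112 and 37 to 94 counts per library.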

Other observations

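Of the 10 genes, 7 had a single RefSeq transcript in the deposited transcript table. In Klf4 the transcript NM_010637 held 98.5% to 99.3% of the estimated count. Egr2 had 5 transcripts, of which NM_010118 held 71.5% of the summed estimated count in Stiff+mito, 48.4% in Stiff, 79.5% in Soft+mito and 79.1% in Soft libraries. With 23 to 112 counts per library spread over 5 overlapping transcripts, no difference between groups is read from these shares. They accompany a case where TPM and counts order the groups differently: Egr2 averaged 0.723 TPM in Stiff and 0.963 TPM in Soft, but 1.75 CPM in Stiff and 1.64 CPM in Soft.

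The letters TATTTAT, the core of an AU-rich element of the kind Zfp36 binds, were counted in the longest annotated 3′ UTR of each gene in GENCODE M21. They were in 5 of the 10 genes and in 30.3% of 11785 tested genes with a 3′ UTR, at a median UTR length of 1087 bases in the 10 genes and 1163 bases in all. Ier3 had 4 matches in 616 bases and Zfp36 had 3 in 777 bases. Klf6 had 2, Klf2 and Atf3 had 1 each, and the others, Egr1, Egr2, Egr3, Klf4 and Ier2, had 0. The count describes letters and not binding.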
